A study of Mus musculus with 18 samples.

Results

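The genes described here are 10 mouse genes of the MHC class II presentation pathway: H2-Aa, H2-Ab1, H2-Eb1, H2-DMa, H2-DMb1, H2-DMb2, H2-Oa, Cd74, Ciita and Ctss. They were chosen by name, as the rows of the deposited gene tables that carry these symbols, and make up 10 of the 23420 genes listed. All 10 were among the 11876 genes that passed the count filter and were tested. RNA was sequenced from 18 libraries in 6 groups of 3. The cells were bone-marrow-derived dendritic cells (BMDCs) of C57BL/6 background, re-plated from bone marrow cultures at day 9 of differentiation with 20 ng/ml GM-CSF, treated for 8 hours and sorted live for high CD11c. The 4 wild-type groups received medium, LPS, IL10 + TGF-β, or LPS + IL10 + TGF-β. The other groups carried Bat3 fl/fl with CD11c Cre (Bat3 cKO) and received medium or LPS. The loxP-flanked gene is Bag6, for which Bat3 is the older name, and Cre is driven by the promoter of CD11c, which dendritic cells and some other myeloid cells use. The ages of the mice, and a Cre-only or fl/fl-only control, are not given in the sources used here. Whether the replicates are separate mice or cultures is not stated for these 18 libraries, and the notes differ on how many replicates were made, so the p-values measure the spread between these libraries, which may be in part technical.

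MHC class II molecules carry peptides from endosomes to the cell surface, where CD4+ T cells read them, and dendritic cells are the cells best known for this task. The α and β chains of I-A are encoded by H2-Aa and H2-Ab1, and H2-Eb1 encodes the β chain of I-E. C57BL/6 mice make no I-E α chain because of a deletion in that gene, so H2-Eb1 transcripts give no surface I-E in this strain. The chains assemble on the invariant chain, the product of Cd74, which the endosomal protease cathepsin S (Ctss) trims. H2-DM, from H2-DMa with H2-DMb1 or H2-DMb2, then exchanges the remaining fragment for peptide, and H2-DO, from H2-Oa and H2-Ob, holds H2-DM back. Ciita encodes the co-activator that is recruited to the promoters of the chain, Cd74, H2-DM and H2-DO genes by the RFX, NF-Y and CREB factors bound there. Ctss is not known as a classical Ciita target.

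In the mouse assembly GRCm38.p6 (mm10), 7 of the 10 genes lie in 1 stretch of chromosome 17. In order along it they are H2-Oa (chr17:34092379-34095234), H2-DMa (chr17:34119693-34139101), H2-DMb2 (chr17:34143229-34151553), H2-DMb1 (chr17:34153191-34160229), H2-Ab1 (chr17:34263227-34269418), H2-Aa (chr17:34282744-34287823) and H2-Eb1 (chr17:34305867-34316674). Bag6 lies on the same chromosome (chr17:35135156-35147321), 818.5 to 1039.9 kb from these 7 genes. Ciita lies at chr16:10480014-10531064 and Ctss at chr3:95526786-95556405.

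Promoter sequence from RefSeq (GRCm38.p6), 250 bases before to 50 bases after a transcription start, was found for 7 of the 10 genes, with 8 promoters in all. Below are the 67-base stretches of the 5 that hold TGATTGG, shown because the Y box, which NF-Y binds, and the X box, which RFX binds, are the elements through which Ciita acts. Each is printed 5′ to 3′ on the strand of its gene, with TGATTGG (part of the Y box), GCAAC (part of the X box) and GATGATGCT in capitals.
H2-Aa, chr17:34287857-34287923, minus strand: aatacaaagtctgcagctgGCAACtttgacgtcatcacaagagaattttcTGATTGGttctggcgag
H2-DMb1, chr17:34153078-34153144, plus strand: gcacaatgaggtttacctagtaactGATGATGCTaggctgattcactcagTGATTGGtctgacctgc
H2-DMb2, chr17:34145107-34145173, plus strand: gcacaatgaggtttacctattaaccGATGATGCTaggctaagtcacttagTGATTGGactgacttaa
H2-Eb1, chr17:34305756-34305822, plus strand: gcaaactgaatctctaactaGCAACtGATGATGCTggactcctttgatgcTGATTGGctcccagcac
H2-Oa, chr17:34092284-34092350, plus strand: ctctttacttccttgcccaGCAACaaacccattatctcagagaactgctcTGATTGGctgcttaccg

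The Y box letters began between 45 bases (H2-Oa) and 92 bases (H2-DMb2) before the start site. In H2-Aa, H2-Eb1 and H2-Oa, GCAAC stood 25 or 26 bases before TGATTGG on the same strand. H2-DMb1, H2-DMb2 and H2-Eb1 shared the 9 letters GATGATGCT, 15 or 16 bases before TGATTGG. Searched on both strands, CTGATTGG was found in 3 of the 7 genes (H2-Aa, H2-Eb1 and H2-Oa) and in 4.1% of all 32851 promoters of this length. The shorter ATTGG, which lies within it, was found in 6 of the 7 and in 37.4% of all, and GCAAC in 4 of the 7 and in 35.2% of all. TGATTGG, GATGATGCT and the spaced pair were chosen after these promoters were read. TGATTGG, which overlaps the other Y box strings, was in 5 of the 7 genes and 7.82% of all promoters, and GATGATGCT was in 3 of the 7 and 0.274% of all. GCAAC with TGATTGG 20 to 40 bases after it on 1 strand was in 3 of the 7 and 0.195% of all. The promoter of Ctss held none of these letters. A match is a string of letters and was not measured as a binding site here.

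The libraries held between 8056831 and 12068759 expected counts. Bag6 was at 22.8 to 27.6 CPM (counts scaled to the effective library size by TMM) in the 12 wild-type libraries and at 4.56 to 11.3 CPM in the 6 Bat3 cKO libraries, so each library matched its genotype label. The remaining Bag6 was not equal in the cKO groups. It was at 5.56 ± 1.52 CPM in cKO medium and 9.36 ± 2.68 CPM in cKO LPS, with overlapping libraries (log2 0.76 ± 0.19, edgeR adjusted p = 0.0018). Itgax, which encodes CD11c, was at 877 ± 175 CPM in wild-type medium and 622 ± 6.98 CPM with LPS. It was lower with IL10 + TGF-β, at 381 ± 40.6 CPM, and with LPS + IL10 + TGF-β, at 267 ± 17.1 CPM. In Bat3 cKO it was at 810 ± 106 CPM in medium and 531 ± 55.5 CPM in LPS. The summed level of 7 B cell markers, the other common source of class II transcripts, was at most 1.91 CPM in any library, with Pax5 and Ebf1 at 0 throughout. One library stood apart in the levels of the class II genes. In wild-type medium, replicate 3 held between 32.8% (H2-Eb1) and 52.1% (Cd74) of the mean of replicates 1 and 2 for the 3 chain genes and Cd74, 43.4% for Ciita and 41.3% for H2-Oa, while H2-DMa stood at 87.4% and Ctss at 99.1%. The same library held 8.02% of the mean of the others for Ccr7 and 17.2% for Fscn1, markers of matured dendritic cells, and 69.7% for Itgax. The counts of these 10 genes in each comparison that uses wild-type medium are therefore given with and without it. The fit pools the spread of a gene over all 6 groups, so this library also enters the standard errors of the other comparisons. For LPS in Bat3 cKO, the standard error of H2-Eb1 was 0.319 in that fit. It was 0.124 when only the 2 groups compared were fitted. The library was singled out in part by the levels of these same genes. Leaving it out raises the medium mean and narrows the spread for most of them. Calls gained without it are thus not independent of that choice. They are a description, and their adjusted p-values do not allow for the choice. In the cytokine group, replicate 1 was the high library for maturation markers, with Ccr7 at 85.3, 7.19 and 2.06 CPM and Cd83 at 30.3, 2.96 and 2.38 CPM in replicates 1 to 3. Without it 9 of the 10 genes were called for the cytokines against medium, 3 for LPS added to the cytokines and 1 for the cytokine interaction. The comparisons of LPS, of the cytokines and of Bat3 cKO with wild-type medium share these medium libraries, and those with wild-type LPS share the LPS libraries, so their results are not independent of each other.

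**Figure D1:**
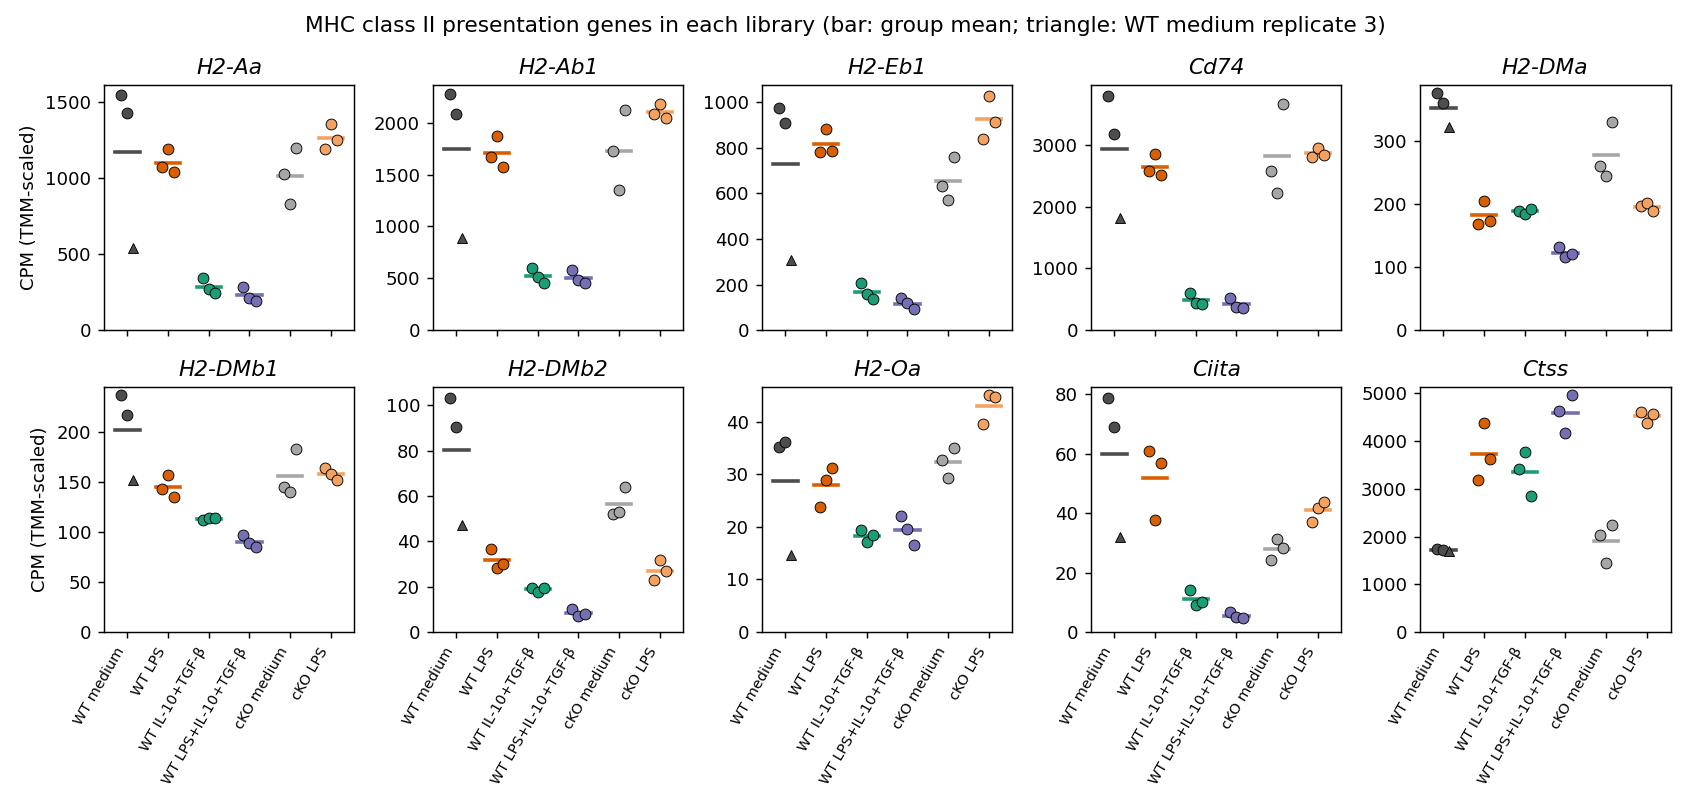
Level of each of the 10 MHC class II presentation genes in TMM-scaled CPM (y axis from 0, its own scale in each panel) in the 18 libraries, by group on the x axis. Points are libraries, bars are group means, and the triangle is wild-type medium replicate 3. In the panels of H2-Aa, H2-Ab1, H2-Eb1, Cd74 and Ciita both groups with IL10 + TGF-β lie below every other library, and in the panel of Ctss the lowest groups are the ones in medium.

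Per length, on the TPM scale, the genes in wild-type medium spanned a wide range. Cd74, the invariant chain, was highest at 4515 ± 1502 TPM (mean ± SD, n = 3), followed by H2-Ab1 at 2862 ± 1199, Ctss at 2459 ± 45.4 and H2-Aa at 2159 ± 989. Within each of the 3 libraries Cd74 was the highest of these 4 and H2-Ab1 was above H2-Aa. Ctss was below H2-Aa in replicates 1 and 2 and above H2-Ab1 in replicate 3, so its place in the order was not resolved. H2-Eb1 was at 834 ± 411 TPM, H2-DMa at 409 ± 26.7, H2-DMb1 at 306 ± 63.2 and H2-DMb2 at 209 ± 74.1. The lowest were H2-Oa, at 54.1 ± 22.2 TPM, and the co-activator Ciita, at 20.9 ± 8.37 TPM. Together the 10 genes took 0.905% to 1.72% of all TPM in the wild-type medium libraries, 1.27% to 1.37% in wild-type LPS and 0.608% to 0.756% across the 6 libraries with IL10 + TGF-β. In Bat3 cKO they took 1.02% to 1.54% in medium and 1.19% to 1.21% in LPS. Levels of H2-DMb1 and H2-DMb2 carry an added uncertainty, since the genes are closely related copies and reads that fit both were divided between them by estimate.

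IL10 + TGF-β were compared with medium in wild-type cells, which asks what these tolerising cytokines do without LPS. The 3 chain genes, Cd74, the 3 H2-DM genes, H2-Oa and Ciita were lower with the cytokines, and Ctss was higher. Of the 10 genes, 9 fell and 1 rose, against 16.9% of all 11876 tested genes that fell and 18.3% that rose (edgeR's quasi-likelihood test, Benjamini-Hochberg adjusted p under 0.05 over all tested genes). The median log2 difference was -1.89 over the 10 genes and -0.002 over all tested genes.

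H2-Aa was at 1544, 1424 and 541 CPM in the wild-type medium libraries (replicates 1 to 3) and at 344, 271 and 242 CPM with the cytokines. The groups did not overlap, and replicate 3 of medium was the low one of its group. H2-Aa was 4.09-fold lower (log2 -2.03 ± 0.31 SE, edgeR adjusted p = 0.00012). Its partner H2-Ab1 went from 1747 ± 751 to 520 ± 68.9 CPM, 3.36-fold lower (log2 -1.75 ± 0.26, edgeR adjusted p = 9.6e-05). H2-Eb1 went from 731 ± 367 to 167 ± 35.1 CPM, 4.39-fold lower (log2 -2.13 ± 0.33, edgeR adjusted p = 0.00019). For all 3 chains, every library with cytokines lay below every library in medium.

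Cd74 had the largest fold difference of the 10. This gene, at chr18:60803849-60812652 and so outside the chromosome 17 locus, was at 3808, 3178 and 1820 CPM in medium and at 597, 440 and 416 CPM with the cytokines. The groups did not overlap, the lowest medium library again being replicate 3. The difference was 6.06-fold (log2 -2.60 ± 0.25, edgeR adjusted p = 5.9e-07). Cd74 per H2-Aa on the TPM scale was 2.24 ± 0.508 in medium and 1.41 ± 0.0515 with the cytokines, so transcripts of the invariant chain were lower relative to those of the α chain. That ratio is a description and carries no test.

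Ciita, the co-activator, was at 78.8, 69.0 and 32.1 CPM in medium and at 14.2, 9.22 and 10.2 CPM with the cytokines. No library overlapped between the groups, and the difference was 5.38-fold (log2 -2.43 ± 0.29, edgeR adjusted p = 6.4e-06). The H2-DM genes were all lower as well. H2-DMb2 was at 103, 90.6 and 47.3 CPM in medium and 19.5, 17.7 and 19.7 CPM with the cytokines, 4.24-fold lower (log2 -2.09 ± 0.22, edgeR adjusted p = 8.7e-07). H2-DMa went from 354 ± 28.0 to 189 ± 4.04 CPM (log2 -0.90 ± 0.11, edgeR adjusted p = 7.1e-07) and H2-DMb1 from 202 ± 44.4 to 113 ± 1.14 CPM (log2 -0.83 ± 0.13, edgeR adjusted p = 2.4e-05). Both of the latter were less than 2-fold lower, and whether they differ from H2-DMb2 was not tested. H2-Oa, a chain of the H2-DM inhibitor, was at 35.2, 36.2 and 14.7 CPM in medium and 19.4, 17.2 and 18.4 CPM with the cytokines. Its groups overlapped through medium replicate 3, and its call (log2 -0.65 ± 0.23, edgeR adjusted p = 0.036) was the weakest of the 10.

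Ctss, the protease that trims the invariant chain, went the other way, from 1731, 1709 and 1703 CPM in medium to 3418, 3769 and 2852 CPM with the cytokines. The medium libraries, replicate 3 included, had a coefficient of variation of 0.85% and lay below all cytokine libraries, and Ctss was 1.95-fold higher (log2 0.97 ± 0.14, edgeR adjusted p = 1.3e-05). Without medium replicate 3 the same counts, 9 lower and 1 higher, were found, with a median of -2.21 over the 10 genes. Cd74 was then at log2 -2.85 ± 0.20 (edgeR adjusted p = 4.9e-09) and Ciita at -2.73 ± 0.19 (edgeR adjusted p = 1.7e-09). H2-Oa was the call that did not hold under every alternative: it passed without medium replicate 3 (log2 -0.96 ± 0.14, edgeR adjusted p = 1e-05), and was lost without medium replicate 1 or 2 or any single cytokine library (adjusted p from 0.063 to 0.18), with the replicate number as a block (log2 -0.63, adjusted p = 0.055), with only the groups compared in the fit (log2 -0.67, adjusted p = 0.16) and without the first cKO replicates (0.053). Over the libraries left out, 9 or 10 of the genes were called.

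Markers of other cell states moved along with these genes. Of 7 tested dendritic cell markers, 6 fell with the cytokines, and the 8 listed summed to 840 to 1476 CPM in medium and 396 to 554 CPM with the cytokines. Zbtb46, a transcription factor of classical dendritic cells, was at 17.2 ± 4.59 CPM in medium and 1.79 ± 0.720 CPM with the cytokines. All 9 markers of granulocyte precursors rose, from summed levels of 416 to 936 CPM to 5295 to 7980 CPM, and 6 of 9 macrophage markers rose, from 1684 to 1827 CPM to 2257 to 2659 CPM. Without medium replicate 3, 7 of 7 tested dendritic cell markers fell, and 9 of 9 granulocyte precursor markers and 5 of 9 macrophage markers rose. The part of these markers in the fall of the class II genes was not tested. In bulk libraries, fewer cells of a type and less RNA per cell cannot be told apart.

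Among other genes of the pathway, 36 were listed. H2-Ob, the partner of H2-Oa in H2-DO, was at 52.0, 50.5 and 14.6 CPM in medium and 3.98, 3.89 and 2.06 CPM with the cytokines (log2 -3.57 ± 0.43, edgeR adjusted p = 1.4e-05), the 1 gene that passed among 2 tested of 3 listed locus genes. H2-Ob per H2-Oa on the TPM scale was 0.477 ± 0.0975 in medium and 0.0668 ± 0.0226 with the cytokines, a description with no test. Of the 7 factors that bind class II promoters, 1 fell and none rose: Rfxap, a subunit of RFX (log2 -1.05 ± 0.40, edgeR adjusted p = 0.045). Its level was low, at 1.87 ± 0.424 CPM in medium and 0.881 ± 0.468 CPM with the cytokines.

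Of 8 genes of endosomal processing, 5 rose with the cytokines and 1 fell. Those that rose included the cathepsin gene Ctsd (log2 1.37 ± 0.11, edgeR adjusted p = 2.5e-09), Lgmn, which encodes asparaginyl endopeptidase (log2 1.11 ± 0.13, edgeR adjusted p = 8e-07), and Ctsl (log2 1.77 ± 0.22, edgeR adjusted p = 6.5e-06). The 1 that fell was Cst3, an inhibitor of cysteine cathepsins, from 2706 ± 1036 to 1174 ± 43.0 CPM (log2 -1.20 ± 0.20, edgeR adjusted p = 0.0001). Of 6 genes of class II turnover and surface organisation, 3 rose and 2 fell. March1, the ubiquitin ligase that marks class II for removal from the surface, went from 98.1, 90.2 and 86.2 CPM to 170, 182 and 152 CPM with no overlap (log2 0.87 ± 0.11, edgeR adjusted p = 1.7e-06), and the tetraspanin gene Cd9 rose (log2 1.10 ± 0.09, edgeR adjusted p = 5.4e-09). March8, also on this list, went the other way from March1 and was called lower, from 24.2 ± 3.54 to 16.9 ± 0.865 CPM.

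Of 12 factors known to act on Ciita transcription, 4 rose with the cytokines and 2 fell. Prdm1, whose product is known as a repressor of Ciita, rose (log2 1.40 ± 0.20, edgeR adjusted p = 1.3e-05). Irf4, an interferon regulatory factor that is also on the dendritic cell list, fell from 157 ± 40.8 to 61.3 ± 6.03 CPM (log2 -1.36 ± 0.16, edgeR adjusted p = 1.2e-06). Without wild-type medium replicate 3, Rfxap was no longer called (log2 -0.85 ± 0.45, edgeR adjusted p = 0.16), and the counts of the processing, turnover and Ciita-acting lists were as above.

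**Figure D2:**
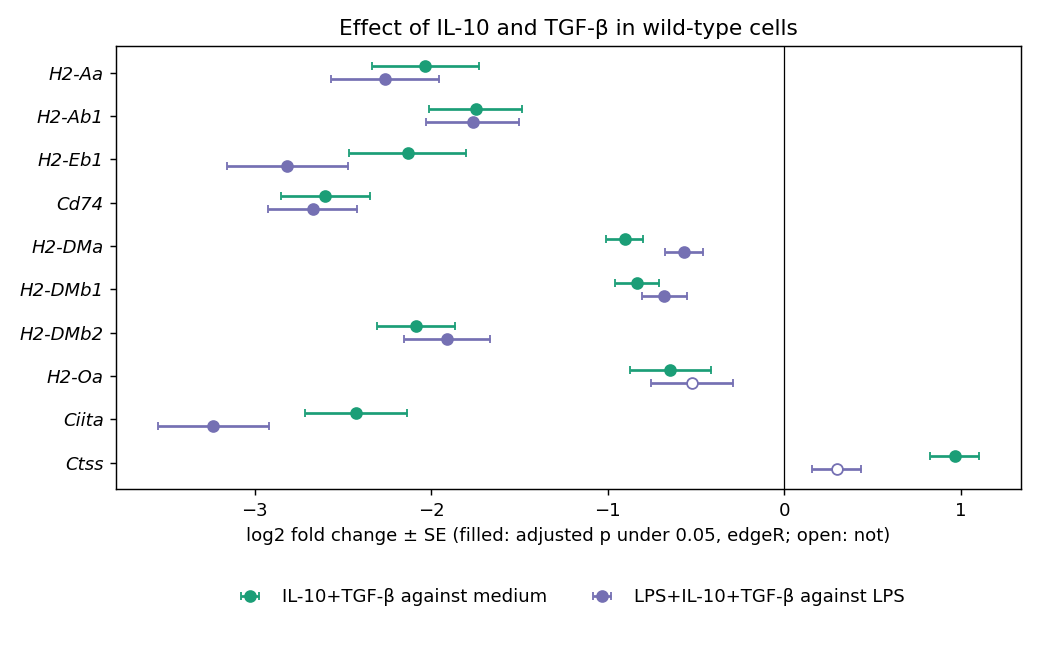
Log2 fold change with its standard error (x axis) of each of the 10 genes (y axis) for IL10 + TGF-β against medium (green) and LPS + IL10 + TGF-β against LPS (purple) in wild-type cells, with filled points for an edgeR adjusted p under 0.05. All genes but Ctss lie left of 0 in both comparisons, and the points of H2-Oa and Ctss for the second comparison are open.

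The cytokines were next compared in the presence of LPS, the TLR4 agonist made by Gram-negative bacteria. Relative to LPS alone, 8 of the 10 genes fell with LPS + IL10 + TGF-β and none rose, against 21.1% of all tested genes that fell and 19.1% that rose. The median log2 difference was -1.84 over the 10 genes and -0.01 over all. H2-Oa, at 27.9 ± 3.83 CPM with LPS and 19.4 ± 2.79 CPM with LPS + cytokines, and Ctss, at 3731 ± 607 and 4583 ± 391 CPM, did not pass. With no count filter H2-Oa passed as lower (log2 -0.51 ± 0.145, edgeR adjusted p = 0.0027) and Ctss as higher (log2 0.31 ± 0.117, edgeR adjusted p = 0.036). With the filter the values were -0.52 ± 0.23 for H2-Oa and 0.30 ± 0.14 for Ctss. H2-Oa also passed in a fit of the 2 groups alone (adjusted p = 0.014), and Ctss without LPS replicate 2 (log2 0.43, adjusted p = 0.023). This comparison shares no library with the one in medium.

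Ciita differed the most, from 60.9, 37.8 and 57.0 CPM with LPS to 6.72, 5.11 and 4.62 CPM with LPS + cytokines. The groups lay far apart, and the difference was 9.41-fold (log2 -3.23 ± 0.32, edgeR adjusted p = 7.9e-07). The chain gene H2-Eb1 was at 783, 884 and 787 CPM with LPS and 140, 117 and 92.0 CPM with LPS + cytokines, 7.04-fold lower (log2 -2.82 ± 0.34, edgeR adjusted p = 1.8e-05). Cd74 was at 2578, 2867 and 2512 and 518, 379 and 352 CPM, 6.37-fold lower (log2 -2.67 ± 0.25, edgeR adjusted p = 4.4e-07). None of these groups overlapped, and the LPS libraries of Cd74 lay close to one another. H2-Aa (4.80-fold, edgeR adjusted p = 4.3e-05) and H2-Ab1 (3.40-fold, edgeR adjusted p = 7.5e-05) were lower as well.

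Of the H2-DM genes, H2-DMb2 fell from 31.6 ± 4.32 to 8.37 ± 1.498 CPM (log2 -1.91 ± 0.25, edgeR adjusted p = 7.4e-06). H2-DMb1 fell from 145 ± 11.2 to 90.3 ± 5.97 CPM (log2 -0.68 ± 0.13, edgeR adjusted p = 0.00022) and H2-DMa from 182 ± 19.7 to 123 ± 7.53 CPM (log2 -0.57 ± 0.11, edgeR adjusted p = 0.00019). These 8 calls held under each library left out and each scaling tried. Beside them, 6 of 7 tested dendritic cell markers fell, from summed levels of 1967 to 2151 CPM to 321 to 376 CPM, 7 of 9 macrophage markers rose and 6 of 9 granulocyte precursor markers rose; their part was not tested.

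In the same comparison both tested locus neighbours fell, H2-Ob from 25.2 ± 3.81 to 3.46 ± 1.17 CPM (log2 -2.85 ± 0.44, edgeR adjusted p = 0.00012) and H2-Eb2, a gene related to H2-Eb1, from 1.58 CPM to 0 counts in all 3 libraries (edgeR adjusted p = 7.5e-05). Of the 7 promoter-binding factors, 2 fell and none rose, the NF-Y subunits Nfyb (log2 -0.94 ± 0.14, edgeR adjusted p = 1.7e-05) and Nfya (log2 -0.48 ± 0.14, edgeR adjusted p = 0.01). Of the 12 factors acting on Ciita, 6 fell and 2 rose, with Irf4 among those that fell (log2 -1.77 ± 0.16, edgeR adjusted p = 4.7e-08) and the receptor gene Ifngr1 among those that rose (log2 0.94 ± 0.11, edgeR adjusted p = 4.3e-07). Of the 8 endosomal processing genes 3 rose and 4 fell, and of the 6 turnover genes 4 rose and 1 fell.

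LPS added to the cytokines was compared with the cytokines alone. Of the 10 genes 4 fell and 1 rose, against 23.1% and 23.9% of all tested genes, with a median of -0.32 over the 10 and -0.002 over all. H2-DMb2 was at 19.5, 17.7 and 19.7 CPM with the cytokines and 10.03, 7.13 and 7.94 CPM with LPS added, with no overlap (log2 -1.17 ± 0.25, edgeR adjusted p = 0.00089). H2-DMa fell from 189 ± 4.04 to 123 ± 7.53 CPM (log2 -0.62 ± 0.11, edgeR adjusted p = 6.5e-05). Ciita fell from 11.2 ± 2.62 to 5.48 ± 1.10 CPM (log2 -1.02 ± 0.34, edgeR adjusted p = 0.021). In the edgeR fit H2-Aa, H2-Ab1, H2-Eb1 and Cd74 did not pass, at 229 ± 48.1, 502 ± 66.5, 116 ± 23.9 and 416 ± 89.4 CPM with LPS added. Their log2 differences were -0.32 ± 0.30, -0.05 ± 0.26, -0.52 ± 0.32 and -0.22 ± 0.24. With no count filter H2-Eb1 (log2 -0.52 ± 0.121, edgeR adjusted p = 1.4e-04) and H2-Aa (log2 -0.32 ± 0.119, edgeR adjusted p = 0.033) passed as lower. For both genes the difference was nearly the same as with the filter and the standard error smaller, and the libraries of the groups overlapped.

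H2-DMb1 fell as well (log2 -0.33 ± 0.13, edgeR adjusted p = 0.041), and Ctss rose from 3346 ± 462 to 4583 ± 391 CPM (log2 0.45 ± 0.14, edgeR adjusted p = 0.011). Some of these calls rested on single libraries. The call of H2-DMb1 was lost without any one of the 3 cytokine libraries or without LPS-plus-cytokine replicate 2 or 3 (edgeR adjusted p from 0.071 to 0.13), that of Ciita without cytokine replicate 1 or LPS-plus-cytokine replicate 2 or 3 (from 0.067 to 0.086), and that of Ctss without cytokine replicate 3 (0.073), so that 3 to 5 genes were called over the libraries left out. March1, the ligase that removes class II, rose with LPS on top of the cytokines, from 168 ± 14.9 to 413 ± 25.9 CPM (log2 1.30 ± 0.11, edgeR adjusted p = 1.1e-08). Of 7 tested dendritic cell markers 2 fell, of 9 granulocyte precursor markers 1 fell, and of 9 macrophage markers 3 rose and 2 fell; their part was not tested. Of the 12 factors acting on Ciita 5 rose and 1 fell, the one that fell being Prdm1 (log2 -1.63 ± 0.21, edgeR adjusted p = 2.4e-06).

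LPS alone was compared with medium in wild-type cells. With all 3 medium libraries, 3 of the 10 genes fell and 1 rose, against 28.9% and 29.8% of all tested genes, so both shares were near or under the background. The median log2 difference was -0.12 over the 10 genes and 0.01 over all. The genes that fell were the 3 of H2-DM. H2-DMa was at 377, 361 and 323 CPM in medium and 169, 205 and 173 CPM with LPS, 1.94-fold lower with no overlap (log2 -0.96 ± 0.11, edgeR adjusted p = 1.3e-07). H2-DMb2 was at 103, 90.6 and 47.3 CPM in medium and 36.5, 28.2 and 30.1 CPM with LPS, 2.54-fold lower, again with no overlap (log2 -1.35 ± 0.21, edgeR adjusted p = 3.7e-05). H2-DMb1 fell from 202 ± 44.4 to 145 ± 11.2 CPM (log2 -0.48 ± 0.13, edgeR adjusted p = 0.0026), its libraries overlapping through medium replicate 3.

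Ctss rose with LPS, from 1731, 1709 and 1703 CPM to 3187, 4385 and 3621 CPM, 2.18-fold higher with no overlap (log2 1.12 ± 0.14, edgeR adjusted p = 7.9e-07). The chain genes H2-Aa, H2-Ab1 and H2-Eb1 were at 1100 ± 79.6, 1705 ± 151 and 818 ± 57.4 CPM with LPS and Cd74 at 2652 ± 189 CPM, each with its LPS libraries inside the range of the medium ones. Without medium replicate 3, 6 genes fell and 1 rose, against 26.4% and 26.6% of all tested genes, with a median of -0.42. The added calls were H2-Aa (log2 -0.44 ± 0.17, edgeR adjusted p = 0.033), H2-Oa (log2 -0.36 ± 0.14, edgeR adjusted p = 0.031) and Ciita (log2 -0.51 ± 0.18, edgeR adjusted p = 0.022). Beside this, 3 of 7 tested dendritic cell markers rose and 2 fell with LPS (1 and 2 without medium replicate 3). Of 9 macrophage markers 4 rose and 5 fell, with or without that library, and of 9 granulocyte precursor markers 2 rose (none without it); their part was not tested.

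Other genes of the pathway were read in the same comparison. Of the 8 endosomal processing genes, 6 rose and none fell, among them, with the smallest p-values, the cathepsin genes Ctsz (log2 1.38 ± 0.10, edgeR adjusted p = 2.9e-10), Ctsb (log2 1.38 ± 0.12, edgeR adjusted p = 3.9e-09) and Ctsd (log2 1.26 ± 0.11, edgeR adjusted p = 3.9e-09). Of the 12 factors acting on Ciita, 7 rose and 1 fell, with Irf1, an interferon-induced activator of Ciita, at 17.1 ± 0.725 CPM in medium and 85.7 ± 11.7 CPM with LPS (log2 2.33 ± 0.12, edgeR adjusted p = 1.2e-12). Ciita itself was not called higher in any wild-type comparison. Of the promoter-binding factors 3 of 7 rose and 1 fell, and of the turnover genes 3 of 6 rose and 1 fell, with March1 at log2 1.22 ± 0.11 (edgeR adjusted p = 6.4e-09). Without wild-type medium replicate 3, H2-Ob and Cst3 were called lower with LPS (log2 -1.03 ± 0.19 and -0.57 ± 0.11, edgeR adjusted p = 1.1e-04 and 1.6e-04), Usf1 was no longer called, and 6 of the 12 factors acting on Ciita and 2 of the 6 turnover genes rose.

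In Bat3 cKO cells LPS was compared with medium in the same way. Of the 10 genes 2 fell and 1 rose, against 34.8% and 29.3% of all tested genes, with a median of 0.30 over the 10 and -0.09 over all. H2-DMa was at 262, 245 and 331 CPM in medium and 197, 202 and 190 CPM with LPS, with no overlap (log2 -0.51 ± 0.11, edgeR adjusted p = 0.00026). H2-DMb2 was at 52.3, 53.0 and 64.2 and 22.9, 31.8 and 26.8 CPM, likewise apart (log2 -1.06 ± 0.22, edgeR adjusted p = 0.00045). Ctss was at 2036, 1449 and 2236 CPM in medium and 4611, 4375 and 4569 CPM with LPS, 2.37-fold higher (log2 1.24 ± 0.14, edgeR adjusted p = 1.4e-07). The LPS libraries of Ctss were close to each other and all above the medium ones.

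The remaining genes did not pass in the edgeR fit of all 6 groups with the count filter. H2-Aa was at 1016 ± 185 CPM in cKO medium and 1264 ± 85.5 CPM in cKO LPS, H2-Eb1 at 655 ± 95.5 and 928 ± 96.6, H2-Oa at 32.3 ± 2.90 and 43.0 ± 3.11, and Ciita at 27.9 ± 3.62 and 40.9 ± 3.36. When only the 2 groups compared were fitted, 7 genes were called, 5 of them higher and 2 lower. In that fit 3466 of all 11165 tested genes were higher and 3656 lower. With no count filter 8 were called, 6 higher and 2 lower, against 3520 and 4031 of all 20280 genes. For H2-Eb1 the log2 difference was 0.503 ± 0.319 with all groups and the filter. It was 0.548 ± 0.124 with the 2 groups and 0.521 ± 0.119 with no filter. On the TPM scale, where the median of all genes moved to -0.47, H2-DMb1 passed as lower instead (log2 -0.50, limma adjusted p = 0.0013). Of 9 granulocyte precursor markers 5 fell with LPS in Bat3 cKO, from summed levels of 972 to 2887 CPM to 515 to 1633 CPM. Of 9 macrophage markers 4 rose and 5 fell, and of 7 tested dendritic cell markers 4 rose and 2 fell; the part of these markers was not tested. Of the 8 endosomal processing genes 7 rose, and of the 12 factors acting on Ciita 7 rose and 1 fell, with Irf1 reaching 212 ± 14.1 CPM from 17.6 ± 0.425 CPM (log2 3.59 ± 0.12, edgeR adjusted p = 1.5e-15).

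Loss of Bat3 was examined in medium first. With all libraries, 3 of the 10 genes fell and none rose, against 14.4% and 15.8% of all tested genes, with a median of -0.18 over the 10 and -0.001 over all. Ciita was at 78.8, 69.0 and 32.1 CPM in wild-type medium and 24.1, 31.4 and 28.2 CPM in Bat3 cKO medium. All cKO libraries lay below all wild-type ones, although replicate 3 of wild type came within 1 CPM of the highest of them, and Ciita was 2.15-fold lower (log2 -1.10 ± 0.27, edgeR adjusted p = 0.0059). H2-DMa, at 354 ± 28.0 CPM in wild type and 279 ± 45.3 CPM in cKO, was lower by less (log2 -0.34 ± 0.10, edgeR adjusted p = 0.017), and so was H2-DMb1, at 202 ± 44.4 and 156 ± 23.3 CPM (log2 -0.37 ± 0.13, edgeR adjusted p = 0.03). The libraries of the latter genes overlapped between genotypes. H2-DMb2, at 80.4 ± 29.4 and 56.5 ± 6.66 CPM, did not pass with all libraries in this fit (log2 -0.51 ± 0.21, edgeR adjusted p = 0.07).

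H2-Aa was at 1544, 1424 and 541 CPM in wild type and 1027, 826 and 1195 CPM in cKO, and Cd74 at 3808, 3178 and 1820 and 2588, 2232 and 3665 CPM. In both genes the cKO libraries fell between the lowest wild-type library, replicate 3, and the highest, replicate 1. Without wild-type replicate 3, 6 genes fell and none rose, against 10.8% and 11.4% of all tested genes, with a median of -0.47 over the 10 and -0.01 over all. They were Ciita (log2 -1.41 ± 0.18, edgeR adjusted p = 3.6e-05), H2-DMb2 (-0.78 ± 0.14, 0.00047), H2-Aa (-0.55 ± 0.17, 0.022), H2-DMb1 (-0.54 ± 0.11, 0.0011), H2-Eb1 (-0.53 ± 0.17, 0.029) and H2-DMa (-0.41 ± 0.11, 0.013). Ciita was called under every alternative. H2-DMa was lost without wild-type replicate 1 or cKO replicate 1 or 2 (edgeR adjusted p from 0.072 to 0.077), and H2-DMb1 without any of these or wild-type replicate 2 (from 0.099 to 0.18), which leaves 1 to 6 genes over the libraries left out.

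Beside these differences in medium, 7 of 9 granulocyte precursor markers rose in Bat3 cKO (summed levels of 416 to 936 CPM in wild type and 972 to 2887 CPM in cKO), and none of 7 dendritic cell markers passed, with sums of 840 to 1476 and 973 to 1268 CPM. Of 9 macrophage markers 1 rose and 3 fell. Their part in the lower Ciita was not tested. Of the 7 promoter-binding factors 2 rose and 1 fell in cKO medium. Rfx5, the DNA-binding subunit of RFX, was at 6.88, 10.6 and 7.23 CPM in wild type and 17.0, 18.1 and 16.6 CPM in cKO, with no overlap (log2 1.07 ± 0.18, edgeR adjusted p = 0.00015). Of the 12 factors acting on Ciita none rose and 1 fell, Usf1 (log2 -0.60 ± 0.14, edgeR adjusted p = 0.0031). H2-Ob, H2-DO's other chain, was at 39.0 ± 21.2 CPM in wild type and 41.6 ± 4.98 CPM in cKO and was not called, and of the 6 turnover genes 3 rose, of the 8 processing genes 1 rose and 1 fell. Several of these counts turned on wild-type medium replicate 3. Without it 3 of the 9 granulocyte precursor markers rose, and 2 of the 7 tested dendritic cell markers fell, Irf4 (log2 -0.53 ± 0.12, edgeR adjusted p = 0.0044) and Fscn1 (log2 -1.69 ± 0.46, edgeR adjusted p = 0.021). The macrophage counts stayed at 1 and 3. Of the 12 factors acting on Ciita 1 then rose and 3 fell, of the 6 turnover genes 1 rose, of the 7 promoter-binding factors 1 rose and 1 fell, and of the 8 processing genes 1 rose and 2 fell.

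**Figure D3:**
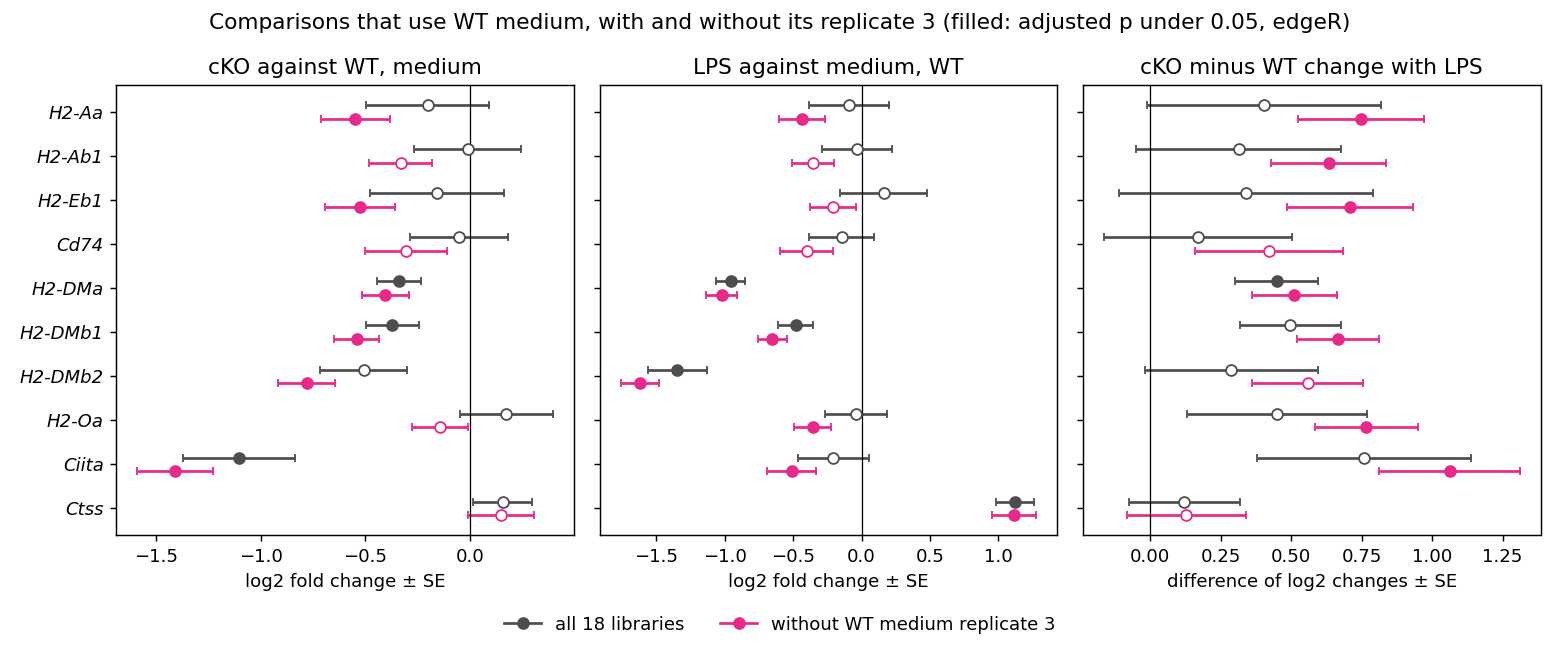
Log2 differences with standard errors (x axes) of the 10 genes (y axis) for Bat3 cKO against wild type in medium, LPS against medium in wild type, and the cKO minus wild-type difference of LPS responses, with all 18 libraries (grey) and without wild-type medium replicate 3 (pink). Filled points have an edgeR adjusted p under 0.05, and their number goes from 3 to 6, 4 to 7 and 1 to 7 when that library is left out. The library was singled out in part by the levels of these genes, so the gained calls are a description.

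Bat3 cKO was then compared with wild type in LPS. H2-Oa was the 1 gene of 10 that rose, and none fell, against 16.0% of all tested genes that rose and 19.3% that fell, with a median of 0.15 over the 10 and -0.05 over all. H2-Oa was at 23.7, 28.8 and 31.2 CPM in wild-type LPS and 39.5, 45.1 and 44.6 CPM in cKO LPS. The groups did not overlap, and H2-Oa was 1.54-fold higher (log2 0.62 ± 0.23, edgeR adjusted p = 0.042). The call was lost when any one of the wild-type LPS libraries was left out, or either replicate 2 or replicate 3 of cKO LPS (edgeR adjusted p from 0.053 to 0.16), and with upper-quartile scaling (0.063). On the TPM scale, where the median of all genes shifted to -0.31, H2-Oa was not called and H2-DMa (log2 -0.25), H2-DMb2 (-0.57) and Ciita (-0.63) passed as lower in cKO (limma adjusted p = 0.031, 0.033 and 0.045), the first reversed in sign. Relative to that median Ciita and H2-DMb2 were still lower and H2-DMa was not.

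Ciita was at 60.9, 37.8 and 57.0 CPM in wild-type LPS and 37.2, 41.9 and 43.7 CPM in cKO LPS, where wild-type replicate 2 fell among the cKO libraries. H2-Aa, H2-Ab1 and H2-Eb1 were at 1264 ± 85.5, 2101 ± 71.8 and 928 ± 96.6 CPM in cKO LPS and Cd74 at 2873 ± 79.0 CPM, and none of them passed with all groups in the fit. The libraries of H2-Ab1 did not overlap between genotypes, and it passed as higher in cKO with only the groups compared (log2 0.32, edgeR adjusted p = 0.025). Ctss passed as higher without wild-type LPS replicate 2 (log2 0.41, edgeR adjusted p = 0.032). Among the pathway lists, 2 of 12 factors acting on Ciita rose and 2 fell, with Irf1 at 85.7 ± 11.7 CPM in wild type and 212 ± 14.1 CPM in cKO (log2 1.31 ± 0.11, edgeR adjusted p = 8.4e-08) and Irf4 lower (log2 -0.71 ± 0.16, edgeR adjusted p = 0.0018). Of the 8 processing genes 3 rose and none fell, of the 6 turnover genes 2 rose and none fell, with March1 at log2 0.51 ± 0.11 (edgeR adjusted p = 0.001), and of the 7 promoter-binding factors 1 rose. Of the 9 granulocyte precursor markers none passed here, of 9 macrophage markers 4 rose and 2 fell, and of 7 tested dendritic cell markers 1 fell; their part was not tested.

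Whether the LPS response differed between genotypes was tested as an interaction, given as the cKO change minus the wild-type change. Bag6 itself had a positive interaction (log2 0.72 ± 0.25, edgeR adjusted p = 0.048), and the part of its unequal level in the cKO groups was not tested. With all libraries 1 of 10 genes passed, in the positive direction, against 7.33% of all tested genes with a positive and 10.1% with a negative interaction, with a median of 0.37 over the 10 and -0.08 over all. This was H2-DMa (log2 0.45 ± 0.15, edgeR adjusted p = 0.041), which fell by 0.96 with LPS in wild type and by 0.51 in cKO. The call was lost without wild-type medium replicate 1 or 2, wild-type LPS replicate 1 or 3, cKO medium replicate 1 or 2, or cKO LPS replicate 2 (edgeR adjusted p from 0.059 to 0.099). Without wild-type medium replicate 3, 7 genes passed and all were positive, against 6.67% of all tested genes that were positive and 8.78% negative, with a median of 0.65. Ciita then had the largest value (log2 1.06 ± 0.25, edgeR adjusted p = 0.0079), followed by H2-Oa (0.77 ± 0.18, 0.0078), H2-Aa (0.75 ± 0.22, 0.029), H2-Eb1 (0.71 ± 0.22, 0.039), H2-DMb1 (0.67 ± 0.15, 0.0044), H2-Ab1 (0.63 ± 0.20, 0.04) and H2-DMa (0.51 ± 0.15, 0.027). The count thus went from 1 to 7 with 1 library left out, a library singled out in part by its low levels of these genes. Of 9 granulocyte precursor markers 3 had a negative interaction and none a positive one (1 and none without that library). Of 9 macrophage markers 3 had a positive and 1 a negative interaction, with or without it; the part of these markers was not tested. On the TPM scale with all libraries none passed, and H2-Aa, H2-Ab1 and H2-Eb1 were at -0.002, -0.052 and -0.10 and H2-DMa at 0.19 (limma adjusted p = 0.3) while the median of all genes was -0.25.

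The cytokine effect with and without LPS was compared by a second interaction, the LPS change in the presence of the cytokines minus that in their absence. Of the 10 genes 1 passed, in the negative direction, against 12.1% of all tested genes with a negative and 8.88% with a positive interaction, and the medians were -0.04 over the 10 and 0.004 over all. It was Ctss (log2 -0.67 ± 0.20, edgeR adjusted p = 0.019), which rose by 1.12 with LPS alone and by 0.45 when LPS was added to the cytokines. Without wild-type medium replicate 3 the median over the 10 genes was 0.24 and Ctss, again the 1 call, was at -0.66 ± 0.21 (edgeR adjusted p = 0.034), and the call was lost without LPS replicate 2, cytokine replicate 2 or LPS-plus-cytokine replicate 2 (from 0.055 to 0.067). Beside it, 4 of the 8 processing genes had a negative interaction and none a positive one, with Lgmn the lowest p (log2 -1.499 ± 0.18, edgeR adjusted p = 3.7e-06). Of the 12 factors acting on Ciita 4 were negative and 1 positive. Without wild-type medium replicate 3, Cst3 (log2 0.44 ± 0.15, edgeR adjusted p = 0.04) and H2-Ob (log2 1.11 ± 0.32, edgeR adjusted p = 0.02) had a positive interaction. Of 9 macrophage markers 5 had a positive and 3 a negative interaction, with or without that library, and of 9 granulocyte precursor markers 2 had a negative one (none without it); their part was not tested.

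The order of the groups differed between genes. For H2-Aa, H2-Ab1, H2-Eb1 and Cd74 the 4 groups without IL10 + TGF-β overlapped with their neighbours in order of mean, and the lowest of them was separated from the cytokine group by a gap with no overlap, after which the 2 cytokine groups overlapped each other. Ciita was graded further: wild-type medium, wild-type LPS and cKO LPS overlapped in that order, and cKO medium at 27.9 ± 3.62 CPM, the cytokines at 11.2 ± 2.62 CPM and LPS + cytokines at 5.48 ± 1.10 CPM then followed, each without overlap with the next. For H2-Oa the highest group was cKO LPS, apart from cKO medium below it. For Ctss LPS + cytokines was highest and wild-type medium lowest, with a gap only between the cytokines alone, at 3346 ± 462 CPM, and cKO medium, at 1907 ± 409 CPM.

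Several ratios between members on the TPM scale followed the treatments, as descriptions with no test. H2-DMb1 per H2-DMb2 was 1.53 ± 0.294 in wild-type medium, 2.70 ± 0.489 with LPS, 3.47 ± 0.232 with the cytokines and 6.34 ± 0.812 with LPS + cytokines, within the limit that reads are divided between these copies by estimate. Ctss per Cd74 was 0.596 ± 0.236 in wild-type medium, 1.31 ± 0.141 with LPS, 6.53 ± 1.33 with the cytokines and 10.5 ± 2.40 with both, so the protease transcript exceeded that of its substrate in every library with cytokines or LPS. H2-Aa per Ciita was 101 ± 10.3 in wild-type medium, 118 ± 41.3 in wild-type LPS and 138 ± 17.0 with the cytokines. It was 163 ± 11.3 in cKO LPS, 196 ± 47.6 in cKO medium and 222 ± 3.92 with LPS + cytokines. The last value rests on 75, 53 and 46 counts of Ciita. The H2-Aa level was thus not in a fixed ratio to Ciita.

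**Figure D4:**
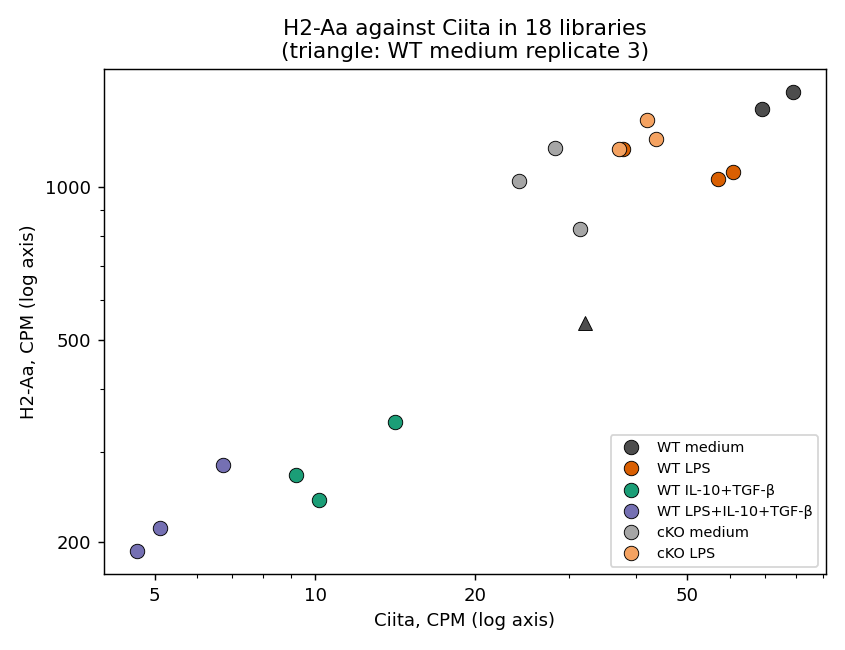
H2-Aa against Ciita, both in CPM on log axes, in the 18 libraries, coloured by group, with wild-type medium replicate 3 as a triangle. The 6 libraries with IL10 + TGF-β lie at the lower left, at most 14.2 CPM of Ciita, and the cKO medium libraries have Ciita between 24.1 and 31.4 CPM with H2-Aa between 826 and 1195 CPM.

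The plot of H2-Aa against Ciita shows both groups with cytokines apart from all others on both axes. Wild-type medium replicate 3, at 32.1 CPM of Ciita and 541 CPM of H2-Aa, lay between these clouds. The cKO medium libraries had about as much Ciita as that library and more H2-Aa. Likeness to the mean log2 profile of H2-Aa, H2-Ab1, H2-Eb1 and Cd74 was measured as Pearson's r over the 18 libraries, which share groups and fall into separate clouds, so r is a description. Among members it was 0.93 for Ciita, 0.88 for H2-DMb1, 0.85 for H2-Oa, 0.80 for H2-DMb2, 0.64 for H2-DMa and -0.33 for Ctss. The 5 genes outside the 10 with the highest r of 9021 eligible were Kcp (0.979), the scavenger receptor gene Cd36 (0.975), the dendritic cell factor Zbtb46 (0.972), Hemk1 (0.971) and Amica1 (0.971). Cd36 averaged 645 CPM in wild-type medium, 588 in cKO medium and 84.1 with the cytokines.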

How the data were processed

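RNA-seq values of 18 libraries of sorted bone-marrow-derived dendritic cells were used. The authors deposited, for each library, 1 gene table with expected counts and TPM of 23420 genes, made with RSEM against mm10 after bcl2fastq, per the submitters' processing notes and the file headers; versions, the aligner and strandedness are not given in the sources used here. Expected counts were rounded, scaled by TMM and tested in edgeR 4.0.16 (R 4.3.3; quasi-likelihood test, filterByExpr, 1 model of 6 groups, Benjamini-Hochberg adjustment over 11876 genes, threshold 0.05), checked first on simulated data. CPM are TMM-scaled. Alternatives used limma 3.58.1 on log2 TPM and DESeq2 1.42.0. Rounded counts limit precision at low levels, and intervals cover counting and replicate spread only. The members and lists were chosen with earlier results of these data known. Named genes are the members, Bag6, up to 3 called genes of smallest p per pathway list, and the 5 genes most alike; others were named after their values were seen. Some genes are listed under older symbols. Same-numbered libraries of wild-type medium and cytokines deviated together (r = 0.35, 0.21 and 0.45 over 8118 genes), a pairing seen in the data, which the labels do not state. No replicates were duplicates within counting noise (chi-square over degrees of freedom, 3.64 to 36.3).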

Additional observations from a re-analysis of the deposited data

Results flagged for a closer look

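In 2 results the response to one factor differed between groups by a test of the difference itself. H2-DMa fell less with LPS in Bat3 cKO than in wild type, by 0.45 ± 0.15 on the log2 scale (edgeR adjusted p = 0.041), 1 of 10 genes against 7.33% of all tested genes. That call was lost without any one of 7 single libraries (adjusted p from 0.059 to 0.099), with upper-quartile scaling (0.064), with only the groups compared (0.062), without the first cKO replicates (0.14) and on the TPM scale (log2 0.19, limma adjusted p = 0.3). Ctss rose less with LPS when IL10 + TGF-β were present, with a difference of -0.67 ± 0.20 on the log2 scale (edgeR adjusted p = 0.019). The call of Ctss was lost without LPS replicate 2, cytokine replicate 2 or LPS-plus-cytokine replicate 2 (from 0.055 to 0.067).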

How the results depend on the processing

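The count of the 10 genes that passed is 3 for Bat3 cKO against wild type in medium, 1 in LPS, 4 for LPS in wild type, 3 for LPS in Bat3 cKO, 10 for the cytokines, 8 for LPS + cytokines against LPS, 5 against cytokines, and 1 for each interaction. For Bat3 cKO in medium it was 1 with only the groups compared and 1 without the first cKO replicates. In the former 1263 of all 11304 tested genes rose and 1043 fell, and in the latter 1330 and 1112 of 12055. In Bat3 cKO medium H2-DMb2 passed as lower with DESeq2 (log2 -0.53 ± 0.213, DESeq2 adjusted p = 0.045). It also passed with no count filter (log2 -0.53 ± 0.124, edgeR adjusted p = 2.6e-04), against a standard error of 0.206 with the filter. For Bat3 cKO in LPS the count was 0 with upper-quartile scaling and without the first cKO replicates, and 2 with only the groups compared. On the TPM scale it was 3 with a pseudocount of 1 and 2 with 0.1. With only the groups compared, 2123 of all 10830 tested genes rose and 2020 fell. With TPM, 724 of 11876 rose and 5424 fell at a pseudocount of 1, and 688 and 5555 at 0.1. For LPS in Bat3 cKO the count was 8 with no count filter and 7 with only the groups compared, with the all-gene counts of both given above. Ciita passed there as higher with DESeq2 (log2 0.62, DESeq2 adjusted p = 0.034). For the genotype interaction the count was 2 with RLE scaling, DESeq2 or Rn45s removed, and 3 with no count filter. It was 0 with upper-quartile scaling, only the groups compared, either TPM pseudocount or the first cKO replicates left out. Over all genes, 1111 were positive and 901 negative of 11876 with RLE scaling, and 1221 and 977 of 11302 with DESeq2. They were 1008 and 1007 of 11886 with Rn45s removed and 1040 and 1203 of 20280 with no count filter. For the cytokine interaction the count was 2 with upper-quartile scaling or either TPM pseudocount and 3 with no count filter. All-gene counts there were 1466 positive and 1166 negative of 11876 with upper-quartile scaling, and 1088 and 1460 of 20280 with no filter. With TPM they were 1465 and 1145 of 11876 at a pseudocount of 1, and 1292 and 1062 at 0.1. The cause of these changes was not tested.

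With 1 library left out, the count ranged from 1 to 6 for Bat3 cKO in medium (6 without wild-type medium replicate 3), 0 to 1 in LPS, 4 to 7 for LPS in wild type, 9 to 10 for the cytokines, 8 to 9 for LPS + cytokines against LPS, 3 to 5 for LPS + cytokines against cytokines, 0 to 7 for the genotype interaction and 0 to 1 for the cytokine interaction. The log2 difference in Bat3 cKO medium then ranged from -0.549 to 0.046 for H2-Aa and from -0.527 to 0.101 for H2-Eb1, with 0.028 for H2-Eb1 without wild-type medium replicate 2. For LPS in wild type it ranged from -0.435 to 0.160 for H2-Aa, -0.356 to 0.162 for H2-Oa and -0.511 to 0.038 for Ciita. Where a group was left with 2 libraries, the spread was pooled over all groups.

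On the TPM scale with either pseudocount the genotype interactions of H2-Aa, H2-Ab1 and H2-Eb1 changed sign, to -0.002, -0.052 and -0.10. The median of all genes was then -0.251 with a pseudocount of 1 and -0.334 with 0.1. Relative to these medians the values of the named genes were still positive. TPM (pseudocount 1) also moved the share of called genes that were higher, over all tested genes, from 52.4% to 39.4% for Bat3 cKO in medium, 45.3% to 11.8% in LPS, 50.8% to 32.9% for LPS in wild type, 45.7% to 21.6% in cKO, 52.0% to 34.1% for the cytokines, 50.9% to 35.8% for LPS added to them, 42.0% to 12.7% for the genotype and 42.4% to 56.1% for the cytokine interaction. RLE scaling gave 55.2% and DESeq2 55.6% for the genotype interaction, and upper-quartile scaling 55.7% for the cytokine interaction.

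With the replicate number as a block, the count was 0 for Bat3 cKO in LPS (H2-Oa, adjusted p = 0.055) and 9 for the cytokines, and the other 7 counts did not change. Of 15 pairs of groups, every same-numbered pair of libraries correlated over 0.1 in 2, and every library correlated best with its own number in 4, a hint from the data only. Of the 48 differences that passed with or without wild-type medium replicate 3, 774 recomputed values kept direction and side of the threshold, 54 lost the call, 21 gained it and 15 reversed. The other 42 differences changed sign in 78 of 786 recomputations and passed in 31. Totals of 8056831 to 12068759 limit H2-DMb2, H2-Oa and Ciita most, the members with the fewest counts.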
